A study of Mus musculus with 9 samples.

Results

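Lung capillaries are built from 2 kinds of endothelial cell, and 8 genes that mark them were followed here in mouse lung after injurious mechanical ventilation. Car4, Ednrb and Apln mark aerocytes, and Aplnr, Plvap, Gpihbp1, Kit and Cd93 mark general capillary cells. The genes were chosen by name. All 8 of 8 were found among the 27203 gene IDs of the table, in 14 transcript rows that were summed per gene. Values are FPKM (fragments per kilobase of transcript, scaled to the mapped fragments of the library), on which the levels of different genes can be compared.

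Aerocytes are large, thin cells that lie against the alveolar epithelium and take part in gas exchange, while general capillary cells keep the ability to divide and to replace both kinds. The pair is linked by a signal: aerocytes make apelin (Apln), and general capillary cells carry its receptor (Aplnr). General capillary cells also hold lipoprotein lipase at the vessel wall through Gpihbp1, and carry the stem cell factor receptor Kit.

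RNA came from whole lung of male C57BL/6 mice aged 6 to 8 weeks, and each of the 3 groups had 3 libraries. Control mice were anaesthetised and intubated without ventilation. Mice with ventilator-induced lung injury (VILI) were anaesthetised, given a muscle relaxant and ventilated with tidal volumes of 20 ml/kg over 4 hours, and lungs were taken 0 hours (VILI 0 h) or 6 hours (VILI 6 h) after ventilation ended. Whether control mice also received the muscle relaxant is not given in the sources used here, so any part it has in a difference from control cannot be told apart from that of ventilation. No group ventilated at a low tidal volume is among these libraries.

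The columns summed to 366360 to 388459 FPKM, and the table gives no read counts, so the depth behind a value is not known from it. Summed FPKM of 16 pan-endothelial markers, among them Pecam1 and Cdh5, was 2024 to 2150 in control, 1872 to 2058 in VILI 0 h and 1761 to 2078 in VILI 6 h. Replicate 1 of VILI 6 h stood apart from replicates 2 and 3. Its Hbb-bs, a haemoglobin chain of red cells, was at 172 FPKM against 1271 and 1492, and its Angptl4 was at 2.87 FPKM against 43.8 and 47.1. Calls of the 8 markers, their partners and the further capillary markers that turn on it are given with and without it.

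In control lung, the 8 markers spanned levels from 22.0 to 175 FPKM. Plvap, a protein of the diaphragms of fenestrae and caveolae, was highest at 175 ± 16.3 FPKM (SD, n = 3), followed by Cd93, a transmembrane lectin-like receptor, at 145 ± 2.90. Car4, the membrane-bound carbonic anhydrase of aerocytes, came next at 74.3 ± 2.62. Gpihbp1 at 61.6 ± 2.29 and Kit at 61.3 ± 0.16 overlapped over their libraries. Below them were Ednrb, the endothelin receptor type B, at 41.5 ± 1.43, Aplnr at 27.9 ± 1.02 and Apln at 22.0 ± 0.642. All neighbours in this order other than Gpihbp1 and Kit were separated over the control libraries. All 8 genes were thus measured well above the filter of a mean of 0.1 FPKM, and all 8 entered the tests.

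On the mouse genome (GRCm38, gene bounds of GENCODE M21), Car4 lies on the plus strand at chr11:84957786-84966044, and Ednrb on the minus strand at chr14:103814625-103844402. Apln lies on the minus strand at chrX:48025146-48034853, and its receptor Aplnr on the plus strand at chr2:85136225-85139923. Cd93 is on the same chromosome as Aplnr, on the minus strand at chr2:148436640-148443563. Plvap lies on the minus strand at chr8:71497765-71511752, Gpihbp1 on the plus strand at chr15:75596628-75599481 and Kit on the plus strand at chr5:75574916-75656722. FPKM counts fragments over the annotated or assembled transcript of each row, that is, over its exons.

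The order changed after ventilation. In VILI 0 h, Cd93 (190.3 ± 28.2 FPKM) stood beside Plvap (174 ± 5.50) with overlapping libraries, and Gpihbp1 (108 ± 14.8) stood above Car4 (81.4 ± 6.26) without overlap. Kit (42.0 ± 4.17) and Ednrb (41.8 ± 4.37) overlapped, as did Apln (11.2 ± 1.53) and Aplnr (10.9 ± 8.94). In VILI 6 h, Cd93 (172 ± 24.0) again overlapped Plvap (157 ± 9.74), and Gpihbp1 (101 ± 45.6) overlapped Car4 (62.2 ± 6.23). Kit (40.8 ± 6.35) and Ednrb (26.3 ± 6.88) were then separated, while Apln (9.75 ± 4.09) and Aplnr (7.77 ± 4.48) overlapped.

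**Figure D1:**
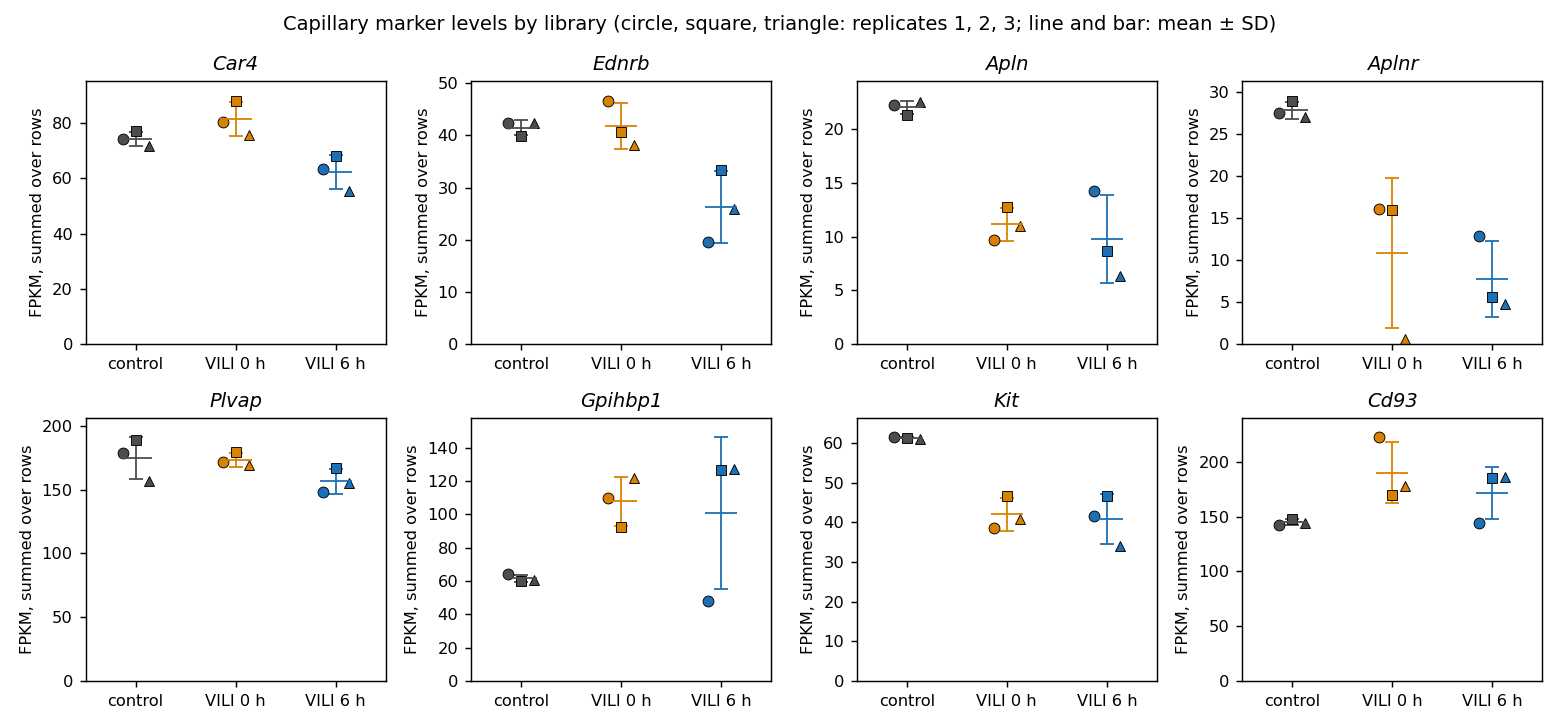
FPKM summed over the rows of each gene (y axis, from 0) for the 8 capillary markers in the 3 libraries of each group, with the mean and SD of each group. Apln, Aplnr and Kit lie below control in every VILI library, Gpihbp1 and Cd93 lie above control in every VILI 0 h library, and Car4 and Ednrb lie below control in every VILI 6 h library.

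The question put to these genes was how the level of each differed between the 3 groups. Differences were tested by limma in 1 model of log2(FPKM + 0.1) over the 9 libraries and 19378 genes. A gene is said to have risen or fallen, or to have passed the test, where its unadjusted P was below 0.05. The p printed is the Benjamini-Hochberg adjusted p over all 19378 genes. "At 0 h" and "at 6 h" stand for the comparison of that VILI group with control, and "between the times" for that of VILI 6 h with VILI 0 h. In whole lung, fewer cells of a type and less RNA per cell cannot be told apart. An exact two-sided permutation test with 3 against 3 libraries cannot give a p below 0.1, which each marker whose groups did not overlap reached.

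At 0 h, 2 of 8 markers rose (Gpihbp1 and Cd93) and 2 of 8 fell (Apln and Kit). Over all genes tested, 6.81% rose and 9.35% fell. None of the 8 had an adjusted p under 0.05 by limma, against 0.284% of all genes. At 6 h, none of the 8 rose and 4 of 8 fell (Car4, Ednrb, Apln and Kit), against 8.17% of all genes that rose and 12.2% that fell. None of the 8 had an adjusted p under 0.05, against 0.702% of all genes. Between the times, none rose and 2 of 8 fell (Car4 and Ednrb), against 5.06% of all genes that rose and 4.94% that fell. No gene of 19378 had an adjusted p under 0.05 in that comparison (0%), while 1938 had an unadjusted P under 0.05. The comparisons with control share the 3 control libraries. Leaving out VILI 6 h replicate 1 raised the calls of all genes as well. In that fit 2 of 8 markers rose and 2 of 8 fell at 0 h, against 8.98% and 14.2% of all genes. At 6 h 2 of 8 rose (Gpihbp1 and Cd93) and 4 of 8 fell, against 12.8% and 26%, and between the times none rose and 3 of 8 fell (Apln, Car4 and Ednrb), against 8.55% and 13.9%. In the order of these comparisons, 3 of 8 (Apln, Gpihbp1 and Kit), 4 of 8 (these and Ednrb) and 0 of 8 had an adjusted p under 0.05 by limma, against 6.93%, 23.3% and 1.84% of all genes.

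**Figure D2:**
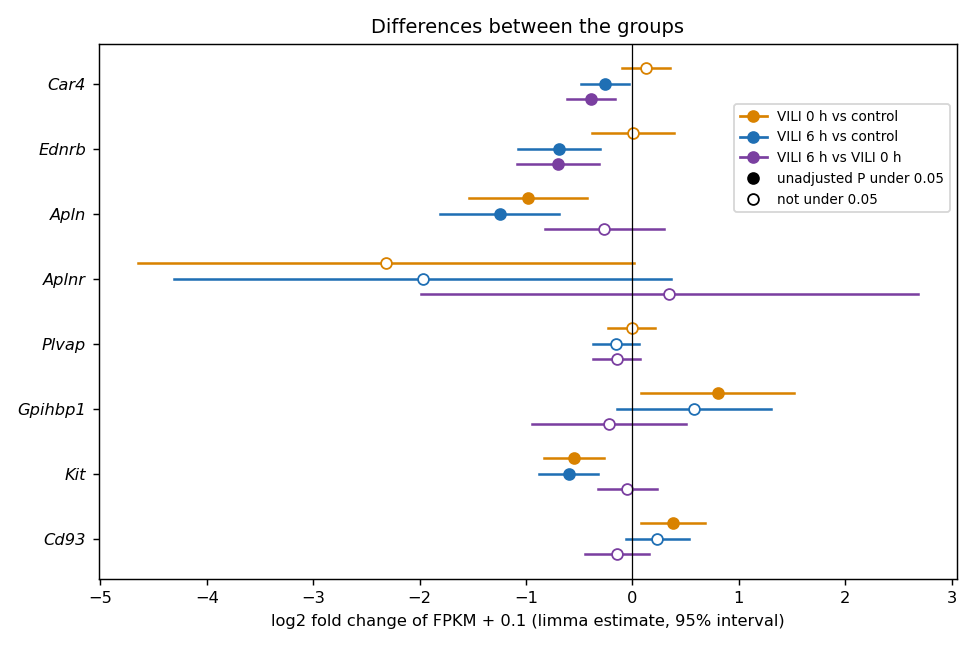
Log2 fold change of FPKM + 0.1 (x axis) with its 95% interval from limma for each marker (y axis) in the 3 comparisons, with filled points for an unadjusted P under 0.05. Apln and Kit lie left of 0 in both comparisons with control, Car4 and Ednrb lie left of 0 in both comparisons that include VILI 6 h, and the intervals of Aplnr are the widest of the 8.

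The median log2 fold change of the 8 markers was 0.00 at 0 h, −0.43 at 6 h and −0.18 between the times. Over all genes tested it was −0.07, −0.09 and −0.02. Centring every library on its median moved these all-gene medians to 0.05, 0.04 and −0.01. That scaling also turned the split of all genes from 1319 risen and 1811 fallen to 1944 and 1232 at 0 h, and from 1583 and 2369 to 2270 and 1640 at 6 h. Between the times the split was 981 and 957 without the centring and 953 and 984 with it. Centring on the pan-endothelial list gave splits of 1929 and 1029 at 0 h, 3142 and 831 at 6 h and 1475 and 459 between the times. Changes of the markers under this and other scalings are given beside each gene where a call depends on them.

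The 3 aerocyte markers shared a lower level at 6 h and differed at 0 h. Car4 was at 74.2, 76.9 and 71.7 FPKM in control replicates 1 to 3. It was at 80.4, 88.1 and 75.7 in VILI 0 h and at 63.2, 67.9 and 55.6 in VILI 6 h. The VILI 6 h libraries thus lay below all 6 others, and the VILI 0 h libraries overlapped control. Car4 fell by 0.26 on the log2 scale (SE 0.10) at 6 h, to 83.8% of the control mean (adjusted p = 0.199, limma). It fell by 0.39 (SE 0.10) between the times (adjusted p = 0.28). At 0 h the log2 difference from control was 0.13, with a 95% interval of −0.10 to 0.36 (adjusted p = 0.563). The fall from control lost its call in the fits without control replicate 1 (log2 −0.26), without control replicate 2 (−0.23) and without VILI 6 h replicate 3 (−0.18). It also lost it with libraries centred on their median (−0.13) or on the pan-endothelial list (−0.08), and with eBayes without a trend. With median-centred libraries Car4 rose at 0 h (0.24).

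Car4 is also made by alveolar macrophages, so 8 other macrophage genes were set beside it. At 0 h, 4 of the 9 genes of that list rose (Ear2, Siglecf, Fabp4 and Krt79) and none fell, with log2 fold changes of 0.48 for Ear2 and 0.98 for Siglecf, the lowest and highest of those that rose. Between the times, Ear2 (log2 −0.67), Siglecf and Car4 itself fell. At 6 h, Ctsk rose (0.35) and only Car4 of the 9 fell. When VILI 6 h replicate 1 was left out, Ctsk did not pass the test at 6 h (0.20), Fabp4 and Krt79 rose there (each 0.50), and Pparg fell along with Car4 (−0.49). Chil3 then also rose at 0 h (0.74), and Chil3 (−0.53) and Pparg (−0.57) also fell between the times. The summed level of the list, Car4 included, was 302.5 to 380.2 FPKM in control and 446 to 512 in VILI 0 h. In VILI 6 h replicates 1 to 3 it was 704, 313 and 388, where Chil3 was at 528, 142 and 221. The part of macrophage RNA in the values of Car4 was not tested.

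Ednrb, which binds endothelins and clears them from the lung circulation, showed its difference at 6 h. In control it was at 42.3, 39.8 and 42.3 FPKM, and at 46.7, 40.6 and 38.2 in VILI 0 h. In VILI 6 h it was at 19.6, 33.3 and 26.0. The 3 libraries of VILI 6 h all lay below the other 6, and replicate 1 was the lowest. Ednrb fell by 0.69 (SE 0.17) at 6 h, to 63.4% of the control mean (adjusted p = 0.0947, limma). The fall from VILI 0 h was 0.70 (SE 0.17, adjusted p = 0.255). VILI 0 h differed from control by 0.01, with a 95% interval of −0.38 to 0.39 (adjusted p = 0.988). No alternative tried, leaving out any 1 library included, changed the call of Ednrb in any of the 3 comparisons.

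Apln, the peptide ligand, was lower at both times. In control it was at 22.2, 21.3 and 22.5 FPKM, and at 9.73, 12.8 and 11.0 in VILI 0 h. In VILI 6 h it was at 14.3, 8.69 and 6.29. Every VILI library lay below every control library, and the spread was wider at 6 h than at 0 h. Apln fell by 0.98 (SE 0.25) at 0 h, to 50.7% of the control mean (adjusted p = 0.108, limma). It fell by 1.25 (SE 0.25) at 6 h, to 44.3% (adjusted p = 0.0596). Between the times the log2 difference was −0.27, with a 95% interval of −0.82 to 0.29 (adjusted p = 0.77). Without VILI 6 h replicate 1, where Apln was highest of the group, it fell from 0 to 6 hours by 0.58.

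The promoters of the 3 aerocyte markers are shown because all 3 genes fell at 6 h, Apln at 0 h as well. Each window runs 5′ to 3′ on the strand of the gene, with 250 bases before and 50 bases after the RefSeq start (GRCm38.p6), and capitals mark a motif match. The windows are chr11:84957504-84957803 on the plus strand for Car4, chr14:103843652-103843951 on the minus strand for Ednrb and chrX:48034804-48035103 on the minus strand for Apln. The Ednrb window lies wholly inside the GENCODE M21 bounds of the gene, whose 5′ end is at 103844402. Sequence before that end was not searched.
Car4: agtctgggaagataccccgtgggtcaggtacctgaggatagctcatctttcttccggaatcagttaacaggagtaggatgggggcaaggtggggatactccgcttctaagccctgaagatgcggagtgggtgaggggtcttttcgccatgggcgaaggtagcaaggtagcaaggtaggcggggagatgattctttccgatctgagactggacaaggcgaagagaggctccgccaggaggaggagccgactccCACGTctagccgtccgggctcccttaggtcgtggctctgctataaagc
Ednrb: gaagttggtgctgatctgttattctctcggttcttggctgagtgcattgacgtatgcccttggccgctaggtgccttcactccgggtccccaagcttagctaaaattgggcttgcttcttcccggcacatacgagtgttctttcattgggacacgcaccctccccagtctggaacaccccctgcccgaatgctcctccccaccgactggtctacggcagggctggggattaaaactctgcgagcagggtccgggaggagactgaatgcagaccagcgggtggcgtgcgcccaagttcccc
Apln: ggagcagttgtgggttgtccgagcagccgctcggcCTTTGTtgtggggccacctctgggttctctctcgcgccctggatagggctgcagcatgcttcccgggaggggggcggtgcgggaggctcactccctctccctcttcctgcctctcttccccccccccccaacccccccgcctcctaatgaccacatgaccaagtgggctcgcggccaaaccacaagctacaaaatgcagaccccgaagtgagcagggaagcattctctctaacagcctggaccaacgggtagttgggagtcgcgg

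The windows hold 57.3% G and C in Car4, 58.7% in Ednrb and 64.0% in Apln, against a median of 52.7% over 32817 promoter windows, and each holds 15 CpG dinucleotides. Short motifs of 6 factor families were searched on both strands. The ETS motif was taken as GGAAGT, which lies in 23.8% of all windows. The forkhead motif GTAAACA lies in 3.65% of them. The motif bound by GATA factors was taken as the letters AGATAA, and 11.2% of the windows hold it. For the Kruppel-like factors the motif was CACACCC, in 7.95% of the windows. For the SOX factors the motif was ACAAAG, which 18.7% of the windows hold. The last one, the core that hypoxia-inducible factors bind, is ACGTG, and it lies in 19.6%. Apln holds a SOX match on the opposite strand, 215 bases before its start. Car4 holds an ACGTG match on the opposite strand at bases 3 to 7, counted from 1 at its start. None of the 6 motifs was found in the window of Ednrb or in those of Kit, the fourth marker with a promoter sequence, and no match overlapped another. A match is a run of letters in a window and not a measured binding site.

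The general capillary markers moved in different directions. Aplnr, the receptor for apelin, was at 27.6, 29.0 and 27.0 FPKM in control. It was at 16.1, 16.0 and 0.576 in VILI 0 h and at 12.9, 5.62 and 4.77 in VILI 6 h. Every VILI library lay below every control library, and replicate 3 of VILI 0 h lay far below the other 8. With that library the log2 differences were −2.32 (SE 1.04, adjusted p = 0.312, limma) at 0 h and −1.97 (SE 1.04, adjusted p = 0.305) at 6 h, and neither passed the test. The group means were 39.1% and 27.9% of the control mean. Without VILI 0 h replicate 3, the difference at 0 h was −0.79, and Aplnr fell by 1.97 at 6 h. The direction between the times also turned on single libraries. The difference between the times was 0.35 (95% interval −1.99 to 2.68) with it, while without it Aplnr fell by 1.18. Without VILI 6 h replicate 1 the difference was −0.09 and did not pass the test. In the fits without VILI 0 h replicate 1 or replicate 2, Aplnr fell at 0 h by 3.08 in each. It also fell at 0 h with a pseudocount of 1 (−1.90) and with libraries centred on the pan-endothelial list (−2.23), and at 6 h with a pseudocount of 1 (−1.83) and with the 6 libraries compared alone (−1.97).

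Plvap did not pass the test in any comparison. It was at 179, 189 and 157 FPKM in control, at 172, 179.7 and 169 in VILI 0 h and at 148, 167 and 155 in VILI 6 h. The control libraries overlapped both VILI groups, and the VILI 6 h libraries lay below those of VILI 0 h. The log2 differences were −0.01 (95% interval −0.23 to 0.21) at 0 h, −0.16 (−0.37 to 0.06) at 6 h and −0.15 (−0.37 to 0.07) between the times. Without control replicate 3, the lowest control, Plvap fell by 0.23 at 6 h.

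Gpihbp1, which carries lipoprotein lipase across the endothelium and holds it in the capillary lumen, was higher right after ventilation. In control it was at 64.2, 60.0 and 60.5 FPKM, and at 109.8, 92.2 and 122 in VILI 0 h. In VILI 6 h it was at 48.1, 127 and 127. All 3 VILI 0 h libraries lay above control, and at 6 h replicates 2 and 3 lay above and replicate 1 below control. Gpihbp1 rose by 0.80 (SE 0.32) at 0 h, to 1.75 times the control mean (adjusted p = 0.263, limma). That call was lost in the fits without control replicate 1, 2 or 3 (0.78 to 0.83), without VILI 0 h replicate 1 (0.78) and without VILI 0 h replicate 3 (0.71). It was also lost with no filter on low values, with eBayes without a trend and with the highest row alone. At 6 h the difference was 0.58 (SE 0.32, adjusted p = 0.327). Without VILI 6 h replicate 1, Gpihbp1 rose there by 1.05, and with libraries centred on the pan-endothelial list it rose by 0.76. Between the times the difference was −0.22 (95% interval −0.94 to 0.50). Its direction turned without VILI 6 h replicate 1 (0.25), and neither value passed the test.

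Kit was lower at both times. It was at 61.4, 61.3 and 61.1 FPKM in control, at 38.5, 46.6 and 40.8 in VILI 0 h and at 41.5, 46.7 and 34.1 in VILI 6 h. The control libraries had an SD of 0.160 FPKM, and all 6 VILI libraries lay below them. Kit fell by 0.55 (SE 0.12) at 0 h, to 68.5% of the control mean (adjusted p = 0.0875, limma). It fell by 0.60 (SE 0.12) at 6 h, to 66.5% (adjusted p = 0.0647). Between the times the difference was −0.05, with a 95% interval of −0.33 to 0.23. Kit also marks mast cells, and 7 of 8 other markers of that cell, such as Cpa3, Mcpt4 and Cma1, were each under 1 FPKM in all 9 libraries. Tpsab1, a mast cell tryptase, was listed at 0 in 8 of the 9. The other one, Hdc, the histidine decarboxylase, was at 12.1 to 14.3 FPKM in control, 20.9 to 41.1 in VILI 0 h and 31.0 to 44.6 in VILI 6 h, and made up most of the summed level of the 8 (14.1 to 15.6, 22.8 to 44.1 and 32.6 to 45.5 FPKM). Hdc rose at both times (log2 1.17 and 1.47, adjusted p = 0.0722 and 0.0310, limma), while Kit fell. The other 5 mast cell genes tested did not pass against control at either time over all 9 libraries. The rise of Hdc was thus not shared by the list, and whether it came from mast cells was not tested. The part of mast cell RNA in the values of Kit was not tested.

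The table gives Kit in a pair of protein-coding rows without transcript IDs, and GENCODE M21 holds 2 protein-coding transcripts of the gene, Kit-201 and Kit-204. They are shown because their near identity bears on the split between the rows. They share 5202 bases, which is 99.3% of Kit-204, and Kit-204 holds 39 more at its start. Kit-201 holds an insert of 12 bases (capitals, with 9 bases on each side in lower case) that Kit-204 lacks, the difference between the known long and short forms of the receptor just outside the membrane.
Kit-201: tttgcatttAAAGGTAACAACaaagagcaa
Kit-204: tttgcatttaaagagcaa

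The first row of Kit was at 21.8, 23.4 and 21.3 FPKM in control, at 10.2, 18.6 and 10.4 in VILI 0 h and at 14.1, 41.7 and 10.9 in VILI 6 h. The second row was at 39.7, 37.8 and 39.8, then at 28.3, 28.0 and 30.4, and then at 27.4, 4.97 and 23.2. The second row was the higher in 8 libraries, and the first row in replicate 2 of VILI 6 h, where the sum over both rows was 46.7 FPKM, the highest of the 6 VILI libraries, next to 46.6 in VILI 0 h replicate 2. Which row is which transcript is not given in the sources used here, and the split over rows that share nearly all their bases is uncertain. With the row of the highest mean alone, the difference of Kit at 0 h was −0.43 and lost its call. The rows of the other markers were less even. The first row of Car4 held 98.9% of the gene's FPKM and the second row of Ednrb 96.0%. One row of Aplnr was listed at 0 in all 9 libraries, and the 3 rows of Gpihbp1 held 9.37%, 82.7% and 7.91%. Apln, Plvap and Cd93 had 1 row each.

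**Figure D3:**
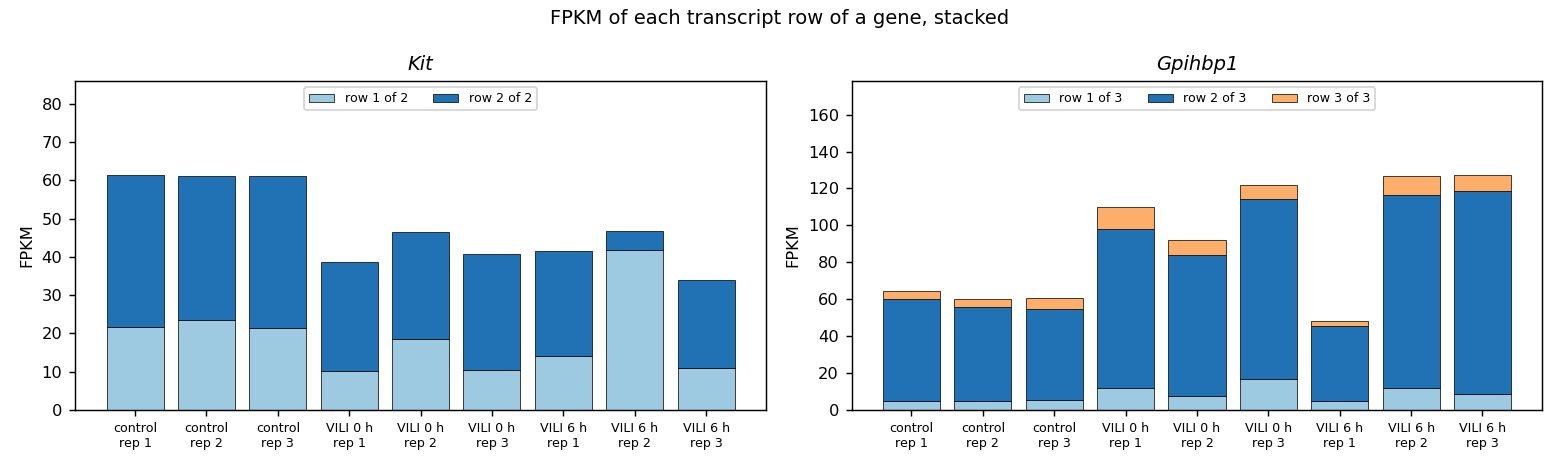
FPKM (y axis, from 0) of each transcript row of Kit and Gpihbp1, stacked, in the 9 libraries (rep, replicate). In Kit the first row takes most of the sum in VILI 6 h replicate 2 and less than the second row in the other 8 libraries, while in Gpihbp1 the second row is the largest in all 9.

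Cd93, which binds the matrix protein Mmrn2 and is also found on myeloid cells, was higher right after ventilation. It was at 143, 148 and 144 FPKM in control, at 223, 169.9 and 178 in VILI 0 h and at 144, 185 and 186 in VILI 6 h. The VILI 0 h libraries all lay above control, with replicate 1 the highest, and replicate 1 of VILI 6 h lay within the control range. Cd93 rose by 0.38 (SE 0.13) at 0 h, to 1.31 times the control mean (adjusted p = 0.208, limma). Without VILI 0 h replicate 1 the difference was 0.26 and lost its call. At 6 h it was 0.24 (95% interval −0.06 to 0.53, adjusted p = 0.337). Without VILI 6 h replicate 1 Cd93 rose there by 0.36, and with libraries centred on the pan-endothelial list it rose by 0.41. Between the times the difference was −0.15 (95% interval −0.45 to 0.15). Neutrophil genes rose in the same libraries, 8 of 10 at 0 h and 9 of 10 at 6 h (8 and 10 without VILI 6 h replicate 1). Their summed level was 51.7 to 63.1 FPKM in control, 566 to 1019 in VILI 0 h and 482 to 2101 in VILI 6 h, lowest of the last group in replicate 1. The part of myeloid RNA in the values of Cd93 was not tested.

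Since whole lung holds many other cells, the markers were also expressed as a share of the summed FPKM of the pan-endothelial list in the same library. Of the 16 genes of that list, 2 rose and 4 fell at 0 h (median log2 −0.02), 1 rose and 6 fell at 6 h (−0.14), and 2 rose and 4 fell between the times (−0.08). With VILI 6 h replicate 1 left out, 5 rose and 5 fell at 0 h, 6 rose and 7 fell at 6 h, and 3 rose and 4 fell between the times. Apln made up 1.01% to 1.10% of it in control, 0.473% to 0.647% in VILI 0 h and 0.322% to 0.810% in VILI 6 h. Kit made up 2.84% to 3.04%, then 1.87% to 2.36% and 1.75% to 2.36%. On this scale both genes still lay below control in all 6 VILI libraries. Ednrb made up 1.89% to 2.09% in control, 2.04% to 2.27% in VILI 0 h and 1.11% to 1.60% in VILI 6 h. Cd93 made up 6.70% to 7.04% in control, 8.61% to 10.8% in VILI 0 h and 8.18% to 9.54% in VILI 6 h. Cd93 was thus above control in all 6 VILI libraries relative to the endothelial list, the VILI 6 h libraries included. Gpihbp1 made up 2.81% to 3.17%, then 4.67% to 6.50% and 2.73% to 6.53%. Plvap, at 7.30% to 8.97%, 8.34% to 9.11% and 7.94% to 8.39%, and Car4, at 3.34% to 3.66%, 3.91% to 4.46% and 2.85% to 3.59%, overlapped control at 6 h. Aplnr made up 1.26% to 1.38% in control and at most 0.810% in a VILI library. These shares are descriptions without a test of their own.

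Ratios between markers within a library do not depend on how the libraries were scaled. The ratio of Gpihbp1 to Ednrb, a general capillary over an aerocyte marker, was 1.43 to 1.52 in control, 2.27 to 3.19 in VILI 0 h and 2.46 to 4.90 in VILI 6 h. It was above control in all 6 VILI libraries, also in VILI 6 h replicate 1, where Gpihbp1 itself was below control. The same marker over the other abundant aerocyte marker, Gpihbp1 over Car4, was 0.780 to 0.865 in control and 1.05 to 1.61 in VILI 0 h. In VILI 6 h it was 0.761 in replicate 1, below all control libraries, and 1.87 and 2.29 in replicates 2 and 3, so the 2 ratios differed in that library. Both ratios rest on Gpihbp1. The FPKM of Kit and Aplnr lay below control in all 6 VILI libraries, and that of Plvap overlapped control. The 2 ratios thus do not stand for the general capillary markers as a set. Within the general capillary markers, Cd93 over Plvap was 0.785 to 0.918 in control, 0.946 to 1.30 in VILI 0 h and 0.974 to 1.20 in VILI 6 h. Within the aerocyte markers, Apln over Car4 was 0.277 to 0.314 in control, 0.121 to 0.145 in VILI 0 h and 0.113 to 0.226 in VILI 6 h. Cd93 over Plvap and Apln over Car4 thus each separated all 6 VILI libraries from control. Car4 over Ednrb, also within the aerocyte markers, was 1.70 to 1.93 in control, 1.72 to 2.17 in VILI 0 h and 2.04 to 3.23 in VILI 6 h. This ratio overlapped control in VILI 0 h. The sum of the 3 aerocyte markers was 137 to 139 FPKM in control, 125 to 142 in VILI 0 h and 87.8 to 109.9 in VILI 6 h. The sum of the 5 general capillary markers was 449.7 to 487 in control, 504 to 559 in VILI 0 h and 395 to 531 in VILI 6 h.

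**Figure D4:**
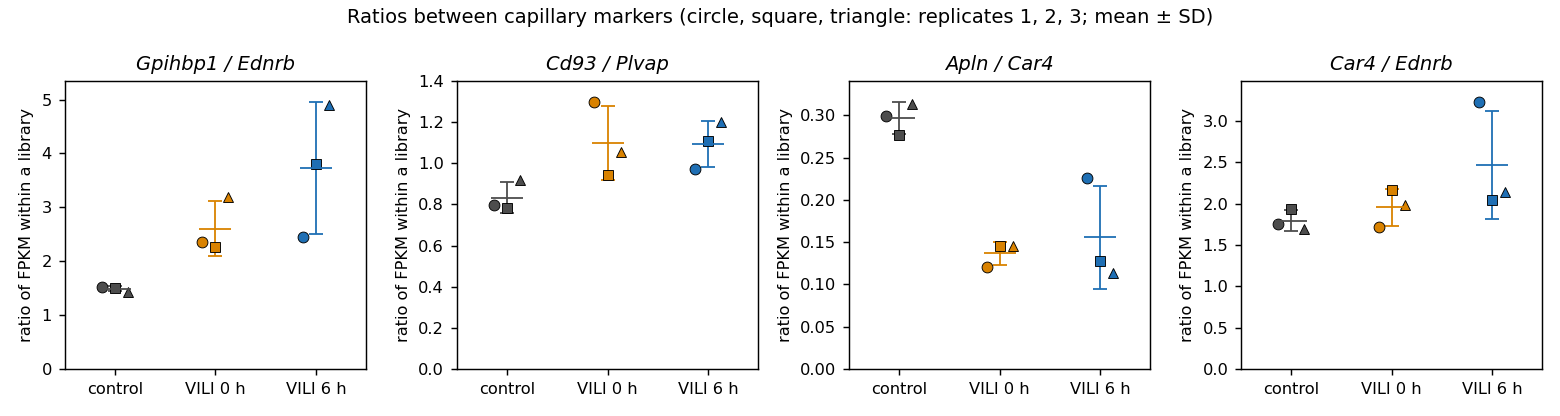
Ratio of FPKM of a pair of capillary markers within a library (y axis, from 0) in the libraries of each group, with the mean and SD of each group. Gpihbp1 over Ednrb and Cd93 over Plvap lie above control, and Apln over Car4 lies below control, in all 6 VILI libraries. Car4 over Ednrb overlaps control in VILI 0 h.

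The ligands, enzymes and partners of the markers were followed as a list of 11 genes, of which 9 passed the filter on low values. At 0 h 2 of the 9 rose (Lpl and Angptl4) and 1 fell (Mmrn2), with a median log2 of −0.10. At 6 h 1 rose (Lpl) and 3 fell (Edn3, Kitl and Mmrn2), with a median of −0.09. Between the times none of the 9 passed the test (median −0.19). Of the same 9, without VILI 6 h replicate 1, 2 rose and 3 fell at 0 h, 3 rose and 3 fell at 6 h, and 2 fell between the times. Apela, the second ligand of Aplnr, and Edn2, an endothelin, were at 0.0704 and 0.0376 FPKM or lower in every library and were not tested.

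The partners of Gpihbp1 include the enzyme it carries and an inhibitor of that enzyme. Lpl, lipoprotein lipase, was at 33.5, 34.0 and 38.9 FPKM in control, at 73.3, 82.1 and 100.4 in VILI 0 h and at 48.5, 79.8 and 105 in VILI 6 h. All 6 VILI libraries lay above control. Lpl rose by 1.25 (SE 0.24) at 0 h (adjusted p = 0.0696, limma) and by 1.06 (SE 0.24) at 6 h (adjusted p = 0.0763). Angptl4, the secreted inhibitor, was at 3.35, 5.49 and 6.11 FPKM in control, at 47.1, 33.1 and 46.6 in VILI 0 h and at 2.87, 43.8 and 47.1 in VILI 6 h. As with Gpihbp1, replicate 1 of VILI 6 h lay below control and the other 5 VILI libraries above it. Angptl4 rose by 3.09 (SE 0.88) at 0 h (adjusted p = 0.141), and the difference at 6 h was 1.89 (SE 0.88, adjusted p = 0.261). Angptl4 rose at 6 h by 3.21 without that replicate 1. Between the times the differences of Lpl and Angptl4 were −0.19 and −1.19 with it and 0.11 and 0.12 without it, none past the test. Lmf1, a factor for the folding of the lipase in the endoplasmic reticulum, differed from control by −0.10 (adjusted p = 0.772) at 0 h and −0.11 (adjusted p = 0.675) at 6 h.

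Kitl, the ligand of Kit (stem cell factor), was at 84.4, 85.6 and 92.1 FPKM in control, at 65.6, 85.6 and 77.0 in VILI 0 h and at 75.9, 58.5 and 46.9 in VILI 6 h. It fell by 0.56 (SE 0.17) at 6 h (adjusted p = 0.131, limma), and at 0 h the difference was −0.21 (adjusted p = 0.58). Kitl also fell between the times (−0.53) without VILI 6 h replicate 1. Over all 9 libraries the ligand thus passed the test at 6 h and not at 0 h, and the receptor at both times, while the difference between the 2 genes was not tested. Kit over Kitl was 0.664 to 0.728 in control, 0.530 to 0.588 in VILI 0 h and 0.548 to 0.798 in VILI 6 h. Mmrn2, the matrix partner of Cd93, was at 14.5, 18.2 and 16.1 FPKM in control, at 12.1, 10.7 and 7.60 in VILI 0 h and at 11.1, 10.2 and 8.82 in VILI 6 h. It fell by 0.70 (SE 0.18) at 0 h (adjusted p = 0.109) and by 0.69 (SE 0.18) at 6 h (adjusted p = 0.101). Cd93 and Mmrn2 therefore had opposite signs at 0 h.

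Among the endothelins and their handling, Edn1 was at 14.0 to 15.9 FPKM in control, 15.2 to 31.7 in VILI 0 h and 10.7 to 21.1 in VILI 6 h, with log2 differences from control of 0.44 (adjusted p = 0.513) and 0.09 (adjusted p = 0.879). Edn3 was at 8.22 to 9.08, then at 6.09 to 6.54 and 3.55 to 9.04. It fell by 0.66 (SE 0.27) at 6 h (adjusted p = 0.222, limma), although replicate 1 of VILI 6 h lay within the control range. Without that library it fell by 1.03 at 6 h, by 0.45 at 0 h and by 0.58 between the times. Ednra, the endothelin receptor type A of smooth muscle, differed from control by −0.33 (adjusted p = 0.343) at 0 h and −0.09 (adjusted p = 0.751) at 6 h. Ece1, which cleaves endothelin precursors, differed by 0.22 (adjusted p = 0.544) and 0.18 (adjusted p = 0.54). Ednra fell at 0 h (−0.33) and Ece1 rose at 6 h (0.37) without VILI 6 h replicate 1. Of the receptor pair and the ligands measured, Ednrb and Edn3 were the genes past the test at 6 h over all 9 libraries.

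Other markers of the same cells, listed from general knowledge, did not move as 1 group. Of 7 further aerocyte markers, Prx, a scaffold protein of the cell membrane, rose at 0 h (log2 0.70, adjusted p = 0.210, limma), and Tbx2 (−0.46, adjusted p = 0.224), a transcription factor, and Chst1 (−0.51, adjusted p = 0.103), a sulfotransferase, fell. The same 3 genes passed at 6 h, with Prx at 0.78 (adjusted p = 0.142), Tbx2 at −0.39 (adjusted p = 0.234) and Chst1 at −0.35 (adjusted p = 0.175). Kdr, the VEGF receptor, differed by −0.66 at each time (adjusted p = 0.375 and 0.29), and its libraries ranged from 40.3 to 127 FPKM at 6 h against 109.0 to 110.5 in control. Fibin, a secreted protein, was at 26.7 to 29.2 FPKM in control, 37.6 to 50.8 in VILI 0 h and 12.6 to 35.9 in VILI 6 h, with differences from control of 0.62 (adjusted p = 0.41) and −0.14 (adjusted p = 0.834). Rprml and Emp2 did not pass the test in any comparison. With VILI 6 h replicate 1 left out, Kdr fell at 0 h (−0.66) and at 6 h (−1.10), and Fibin rose at both times (0.62 and 0.36). Emp2 then fell at 6 h (−0.33) and between the times (−0.29), where Prx rose (0.42). The medians of the 7 were −0.46, −0.35 and −0.01 in the order of the comparisons above, and −0.46, −0.40 and −0.27 with that library left out.

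Of 7 further general capillary markers, 2 fell and none rose at 0 h, and 3 fell and none rose at 6 h. Tek, the angiopoietin receptor, fell by 0.47 (adjusted p = 0.112) and 0.55 (adjusted p = 0.0716), and Glp1r, the receptor for glucagon-like peptide 1, fell by 0.80 (adjusted p = 0.241) and 1.13 (adjusted p = 0.109). Cxcl12, a chemokine, fell at 6 h by 0.90 (adjusted p = 0.109, limma), and at 0 h its difference was −0.53 (adjusted p = 0.316). Ptprb, Sema3c, Bmp6 and Adgrl3 did not pass the test, with differences from control between −0.49 and 0.34. That of Sema3c at 6 h was −0.29, and 0.08 without VILI 6 h replicate 1. The medians of the 7 were −0.32, −0.49 and −0.18 (−0.32, −0.64 and −0.17 without VILI 6 h replicate 1), and no gene of this list or of the further aerocyte markers passed between the times over all 9 libraries. Adgrl3 rose in all 3 comparisons (0.30, 0.56 and 0.26) without VILI 6 h replicate 1. Bmp6 then fell at 6 h (−0.77) and between the times (−0.45), and Cxcl12 at 0 h (−0.53) and between the times (−0.56).

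**Figure D5:**
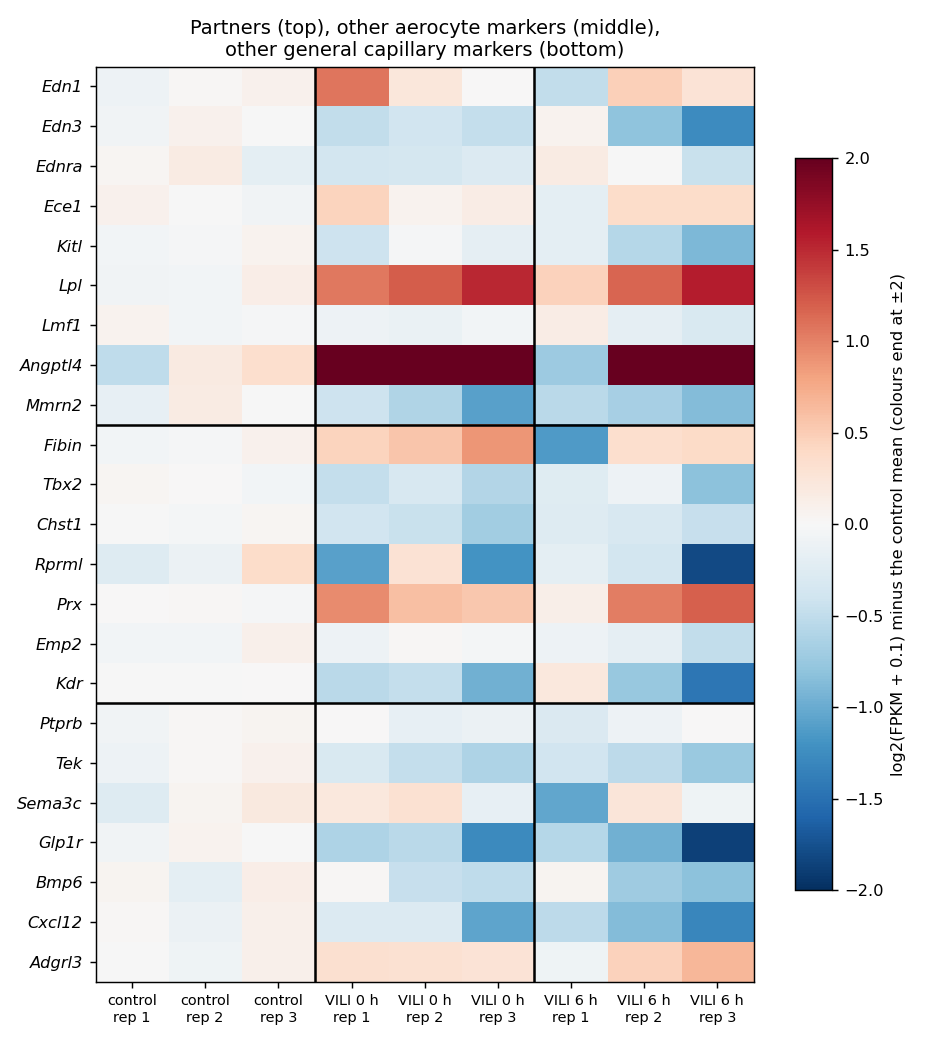
Log2(FPKM + 0.1) minus the control mean (colour, ending at ±2) of the 9 tested partners, 7 further aerocyte markers and 7 further general capillary markers (rows) in the 9 libraries (columns). Lpl and Prx lie above and Mmrn2, Chst1, Tek and Glp1r lie below the control mean in all 6 VILI libraries, and Angptl4 is raised in 5 of them and lowered in VILI 6 h replicate 1.

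The genes whose pattern was most like that of each marker were found by Pearson's r of log2(FPKM + 0.1) over the 9 libraries, among 14107 other genes with a mean of at least 1 FPKM. The libraries fall into 3 groups, so that any pair of genes that differ between the groups in the same way will have a high r. Car4 was closest to Fkbp7 (r = 0.957) and Rtn2 (0.956), and Ednrb to Tspan3 (0.968) and Fmo2 (0.961). Apln was closest to Shroom4 (0.994) and Eda2r (0.992), and Aplnr to Sox7 (0.963) and Hhex (0.954). Gpihbp1 was closest to Trarg1 (0.990) and Rapgef4 (0.986), Kit to Prkaa2 (0.983) and Cd55b (0.972), and Cd93 to Cul1 (0.985) and Chp1 (0.980). Plvap had the lowest of these values, with Pik3r4 at 0.891 and Grp at 0.880. None of the 8 markers was among the closest pair of another marker.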

How the data were processed

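The authors removed adapter and low-quality reads from rRNA-depleted lung libraries, aligned them, assembled transcripts and deposited FPKM values per transcript, estimated by Cuffdiff. The submitters' processing notes name Bowtie2 2.0.6, TopHat2 2.0.9, Cuffdiff 2.1.1 and GRCm38. The library kit and sequencer differ between the labels and the methods of the study, and which of them applies is not given in the sources used here. The table holds 60108 rows under gene IDs without transcript IDs, and GENCODE M21 (GRCm38) named 23503 of the 23713 IDs from Ensembl.

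From these values FPKM was summed per gene, and genes with a mean of at least 0.1 FPKM were tested on log2(FPKM + 0.1) by the moderated test of limma 3.58.1 (R 4.3.3, variance trend on), in a model of group alone fitted to all 9 libraries. A fold change on this scale understates that of low genes. No count test was run, since the deposited values are not counts. P-values set each difference against a spread pooled over all 3 groups of 3 libraries and moderated over genes. A comparison of a pair of groups thus also depends on the spread of the remaining group. Intervals are at 95%. The procedure was tested on simulated data. Python 3.11.15, pandas 2.3.3, scipy 1.17.1, numpy 2.4.6 and matplotlib 3.10.9 were also used.

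The markers and gene lists (pathway partners, further aerocyte and general capillary markers, pan-endothelial, arterial, venous and lymphatic endothelial, mast cell, alveolar macrophage, neutrophil, pericyte and smooth muscle, fibroblast, alveolar type 1, alveolar type 2 and erythroid) were chosen with earlier results of these data known. Named were the markers, all partners and further capillary markers, of every other list the highest and lowest gene past the test, and for each marker the 2 most alike genes. Other genes named for single values (Pecam1, Cdh5, Hbb-bs, Cpa3, Mcpt4, Cma1 and Tpsab1) and the lists of the genes past the test were chosen after their values were seen. Alternatives were pseudocounts of 0.01 and 1, a mean of at least 1 FPKM, no filter, libraries centred on their median or on the pan-endothelial list, a replicate block, eBayes without a trend, the highest row alone, only the 6 libraries compared and each library left out. Promoters came from RefSeq (GRCm38.p6), which held 4 of the 8 markers, and the Kit sequences from GENCODE M21.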

Additional observations from a re-analysis of the deposited data

Results flagged for a closer look

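The level of Car4 differed between the 2 times, by the test of VILI 6 h against VILI 0 h itself, at an unadjusted P under 0.05 (log2 −0.39, adjusted p = 0.280, limma). Against control, Car4 stood at 0.13 at 0 h and at −0.26 at 6 h, and all 3 libraries of VILI 6 h lay below all 3 of VILI 0 h.

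The level of Ednrb differed in the same test (log2 −0.70, adjusted p = 0.255, limma). Against control, Ednrb stood at 0.01 at 0 h and at −0.69 at 6 h, again with no overlap between the times. Single outlying libraries were not tested for in groups of 3.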

How the results depend on the processing

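The number of markers past an unadjusted P of 0.05 by limma was 4 at 0 h, 4 at 6 h and 2 between the times. Under the alternatives other than leaving out a library it ran from 2 to 5, from 3 to 5 and at 2. The lowest value, 2 at 0 h, came with the highest row alone, where Kit and Gpihbp1 lost their calls. Leaving out 1 library at a time gave 3 to 5, 3 to 6 and 2 to 3. The 6 came without VILI 6 h replicate 1, and the 3 without that library or without VILI 0 h replicate 3. Over all genes, 3130, 3952 and 1938 passed, and 1979 to 5094, 2543 to 7526 and 1210 to 4350 under the alternatives. At an adjusted p under 0.05 there were 55, 136 and 0 genes, and 1 to 1597, 0 to 4512 and 0 to 356 under the alternatives. Of the 8 markers none was among them, and 0 to 3, 0 to 4 and 0 under the alternatives, the 4 again without VILI 6 h replicate 1. The difference of Aplnr between the times was 0.35 and ran from −1.18 without VILI 0 h replicate 3 to 1.11 without VILI 0 h replicate 1, and no other marker changed direction past the test. With a replicate block the counts were 5, 4 and 2, and the added call was Aplnr at 0 h (−2.32). The numbers did not pair the libraries, since deviations from the group means of same-numbered libraries correlated at −0.22 to 0.02. Having 3 libraries a group and no read counts limits the precision, and the cause of each change was not tested.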

Other observations

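Markers of the larger vessels were followed in the same fit (limma). Of 7 arterial genes, Gja5 (log2 −1.55, adjusted p = 0.286) and Gja4 (−0.79, adjusted p = 0.258), connexins of arterial endothelium, fell at 0 h. Hey1, a Notch target, fell at 6 h (−1.06, adjusted p = 0.127) and vs VILI 0 h (−1.01, adjusted p = 0.348), where Bmx also fell (−0.46, adjusted p = 0.497). Of 7 venous genes, Nr2f2, the transcription factor of venous identity, fell at 0 h (−0.73, adjusted p = 0.175). Selp, P-selectin, rose at 6 h (1.79, adjusted p = 0.102) and vs VILI 0 h (1.57, adjusted p = 0.329), where Ephb4 rose as well (0.46, adjusted p = 0.482). Of 6 lymphatic genes, Mmrn1 (0.66, adjusted p = 0.0999) and Reln (0.50, adjusted p = 0.214) rose at 0 h, and Flt4 (0.29, adjusted p = 0.234) and Reln (0.59, adjusted p = 0.134) rose at 6 h, with none past the test between the times. Adjusted p-values of these genes were 0.0999 or higher. In the pan-endothelial list, Emcn rose at 0 h (0.35, adjusted p = 0.296) and fell at 6 h vs control (−0.53, adjusted p = 0.123) and vs VILI 0 h (−0.88, adjusted p = 0.144). Tmem100 fell at 0 h (−0.60, adjusted p = 0.113), Calcrl had the lowest value at 6 h (−0.88, adjusted p = 0.125), Esam rose there (0.45, adjusted p = 0.171), and Eng rose between the times (0.54, adjusted p = 0.254).

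Of the other cell types, neutrophil genes had the highest medians, 3.53 and 4.07 against control and 0.35 between the times (3.53, 4.81 and 0.96 without VILI 6 h replicate 1). Retnlg was the highest of them at 0 and 6 h (4.95 and 4.60, adjusted p = 0.0284 and 0.0217), and Ltf (1.29) and Csf3r (2.07) were the lowest past the test. Leaving out that library gave 8, 10 and 5 of 10 risen, against 8, 9 and 0 with it, and Ltf lost its call at 0 h. Retnlg was then at 5.49 at 6 h, below Ngp at 6.10. Of 8 mast cell genes, 6 were tested, and Hdc, the histidine decarboxylase, rose at 0 h (1.17, adjusted p = 0.0722) and at 6 h (1.47, adjusted p = 0.0310), while Tpsb2 fell between the times (−1.48, adjusted p = 0.393). Of 8 pericyte and smooth muscle genes, Notch3 fell at 0 h (−0.34, adjusted p = 0.27), and Notch3 (−0.33, adjusted p = 0.225) and Cox4i2 (−0.31, adjusted p = 0.216) fell at 6 h. Of 8 fibroblast genes, 1 rose and 3 fell at 0 h, from Col3a1 at −0.47 to Dcn at 0.39. At 6 h 4 fell vs control, from Lum at −1.09 to Col1a2 at −0.34, and Lum (−0.90) and Dcn (−0.55) fell between the times. Of 8 alveolar type 1 genes, Hopx (0.47) and Pdpn (0.57) rose at 0 h, and at 6 h 2 rose and 1 fell, from Clic5 at −0.32 to Pdpn at 0.79. Of 7 alveolar type 2 genes, Sftpa1 rose at 0 h (0.28, adjusted p = 0.24), and Lyz1 (−0.82, adjusted p = 0.221) and Lamp3 (−0.31, adjusted p = 0.208) fell at 6 h. Of 5 erythroid genes, none passed against control, and 3 fell between the times, from Hbb-bs at −1.59 to Hba-a1 at −1.39. Without VILI 6 h replicate 1 these falls were −0.60 for Hbb-bs and −0.47 for Hba-a1, and all 5 rose at 0 h. Their summed FPKM in VILI 6 h was 489 in replicate 1 against 3454 and 3867. Counts of the other lists also changed without VILI 6 h replicate 1 (genes risen and fallen at 0 h, at 6 h and between the times). Calls of all genes tested became more frequent in that fit as well. Of all genes, 8.98% rose and 14.2% fell at 0 h. The shares were 12.8% and 26% at 6 h, and 8.55% and 13.9% between the times. Arterial genes then stood at 1 and 2, 0 and 4, and 1 and 2, where Gja5 fell at 6 h by 1.98. Venous genes stood at 1 and 2, 3 and 1, and 3 and 0, and lymphatic genes at 4 and 0, 4 and 1, and 0 and 1. Alveolar type 1 genes stood at 2 and 0, 1 and 4, and 0 and 3, where Hopx lost its call at 6 h (0.28). Fibroblast genes stood at 1 and 4, 1 and 4, and 1 and 2, and at 6 h Col1a2 lost its call (−0.34) while Tcf21 fell (−1.28). Alveolar type 2 genes stood at 2 and 1, 0 and 2, and 0 and 2, pericyte and smooth muscle genes at 0 and 2, 0 and 2, and 0 and 1, and mast cell genes at 1 and 0, 1 and 1, and 0 and 1.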
